A study of Caenorhabditis elegans with 16 samples.

Results

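The cytoplasmic ribosomal protein genes of Caenorhabditis elegans were taken as the protein-coding genes whose names start with rpl- or rps-, leaving out those of the mitochondrial ribosome. The rule gave 78 genes, 47 of the large ribosomal subunit (rpl) and 31 of the small subunit (rps), out of 46536 genes and 20112 protein-coding genes in the deposited tables. All 78 were found in the Ensembl annotation of WBcel235.

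The ribosome is built in the nucleolus and cytoplasm from ribosomal RNA and a fixed set of proteins, and it reads messenger RNA on the small subunit and joins amino acids on the large subunit. Its protein genes are among the most strongly transcribed genes of dividing cells, and most are held at matched levels because each ribosome needs a single copy of nearly every protein. In the worm germline most genes on the X chromosome are kept silent until late oogenesis, and some genes have an X-linked and an autosomal copy, as do rpl-11 and rpl-25.

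RNA was sequenced from germline tumors dissected from adults 1 day old of the Bristol strain, with 4 libraries for controls (0 h) and 4 for each time on auxin, which was given at 1 mM and lasted 2 h, 4 h or 48 h up to dissection. Every group, controls included, carried gld-1(q485) and gld-2(q497), which remove promoters of meiotic entry, glp-1(ar202), an allele of the germline Notch receptor, the allele lag-1(oz536oz537) and the transgene ieSi64[gld-1p::tir1::mRuby]. The transgene expresses TIR1, a plant auxin receptor that directs degron-tagged proteins to breakdown, from the gld-1 promoter, which is active in germ cells. LAG-1 is the DNA-binding factor of the Notch pathway, and the time course asks which transcripts differ after auxin. The labels do not say what was changed in lag-1, no group had auxin without that allele, and LAG-1 protein was not measured in these files. An effect of auxin by itself cannot be told apart here. Larvae were synchronised and grown for 48 h at 25 °C, so in the 48 h group the duration of treatment and the stage at which it began cannot be told apart.

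The libraries held 17760706 to 33888940 reads, and the values are given as CPM (reads scaled to a fixed library total). A first table held controls 1 to 4, 2 h libraries 1 and 2 and 48 h libraries 1 to 4, and a second table held 2 h libraries 3 and 4 and 4 h libraries 1 to 4. Comparisons were made within a table. Among the first 10 libraries 3 stood apart. Reads of ribosomal RNA left after depletion made up 53.3% in control 1, 51.7% in control 3 and 44.9% in 48 h library 1, and 32.2% to 36.2% in each of the remaining 7. The share was 37.7% to 44.6% in the second table. The 10 germline markers summed to 1504 to 3191 CPM over the 16 libraries, and each of the 5 somatic marker lists (intestine, muscle, neurons, epidermis and somatic gonad) to 15.3 to 121 CPM. The tissue is bulk, so fewer cells of a type and less RNA per cell cannot be told apart. The labels call the libraries biological replicates without saying how each was collected, and p-values measure the spread between them.

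The ribosomal protein genes were among the most abundant transcripts of the tumors. Levels were compared between genes as mean CPM per kb of exon over the 16 libraries. By that measure 67 members were among the 100 highest of 19944 protein-coding genes and 73 among the 200 highest. The median member stood at 2078 CPM per kb, with 2038 for the large and 2223 for the small subunit, and the quartiles were 1455 and 2584 CPM per kb. The members were short, with a median exon length of 532 bases against 1167 for protein-coding genes, and ranged from 236 to 1456 bases. They lay on chromosomes I (23), II (10), III (18), IV (17), V (8) and X (2), whereas 13.5% of protein-coding genes are X-linked. The X-linked members were rpl-11.2 and rpl-25.1. For 13 members an exon overlaps an exon of another gene, and with no strand rule stated for the counting, reads of those pairs may not be separable.

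The 5 highest members per kb were rps-23, a protein near the decoding centre, at 4518 CPM per kb, rpl-41.2, a copy of the gene for the smallest ribosomal protein, at 4465, rpl-11.1, whose product binds the 5S ribosomal RNA, at 4254, rpl-43 at 4114, and rpl-10, a late-joining protein of the large subunit, at 3586. The level of rps-23 was 2039 to 2379 CPM over the 16 libraries, a narrow range. The 5 lowest were all genes of the large subunit. The rpl-24.2 gene, described in the files as a probable biogenesis protein, stood at 178 CPM per kb, rpl-37 at 140, rpl-11.2 at 48.9, rpl-25.1 at 1.60 and rpl-42 at 0.307. In every library rpl-42 had between 1 and 11 reads, close to the 3 reads that a count of 0 allows. The rule does not take in W01D2.1, which the files describe as a ribosomal protein and which stood at 1078 CPM per kb. In all, 72 members had a mean of at least 200 CPM and 6 were lower.

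**Figure D1:**
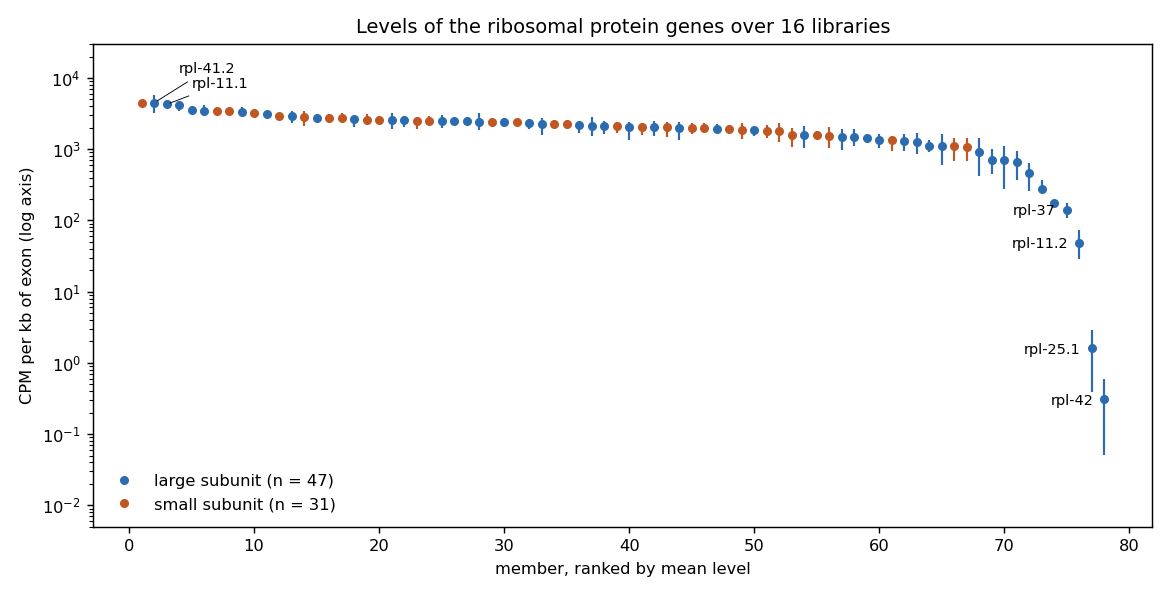
Mean level of each of the 78 ribosomal protein genes in CPM per kb of exon (log axis), ranked from high to low, with a line from the lowest to the highest of 16 libraries; blue is the large and orange the small subunit. The quartiles of the members are 1455 and 2584 CPM per kb, and rpl-37, rpl-11.2, rpl-25.1 and rpl-42 fall off at the low end.

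Together the members took 14.6% to 19.1% of all protein-coding reads. The shares of the controls were 18.4%, 15.1%, 19.1% and 15.7% (libraries 1 to 4), with a mean of 17.1% ± 1.97 (SD, n = 4). In the 48 h group the shares were 17.1%, 15.9%, 15.8% and 15.3%, with a mean of 16.03% ± 0.770 (SD, n = 4). The 2 h libraries of the same table had 16.8% and 14.8%. These groups overlapped, and the highest shares were those of control 1, control 3 and 48 h library 1, the 3 libraries with the most ribosomal RNA. The part of ribosomal RNA in these shares was not tested.

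In the second table the range was narrower. The 2 h libraries had shares of 14.8% and 14.6%, and the 4 h libraries had 15.2%, 15.2%, 14.99% and 15.2%. All 4 h libraries were above both 2 h libraries, by under 1 percentage point. On the CPM scale the summed level did not separate the groups: it was 83687 and 85958 CPM at 2 h and 77827 to 87303 CPM at 4 h.

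The balance of the subunits differed little between libraries. The summed CPM of large-subunit genes was 1.25 ± 0.0136 times that of small-subunit genes in controls (SD, n = 4) and 1.26 ± 0.0160 times at 48 h (SD, n = 4). The ratio was 1.23 and 1.24 in the 2 h libraries of the first table, 1.197 and 1.212 in those of the second, and 1.17 to 1.21 at 4 h.

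**Figure D2:**
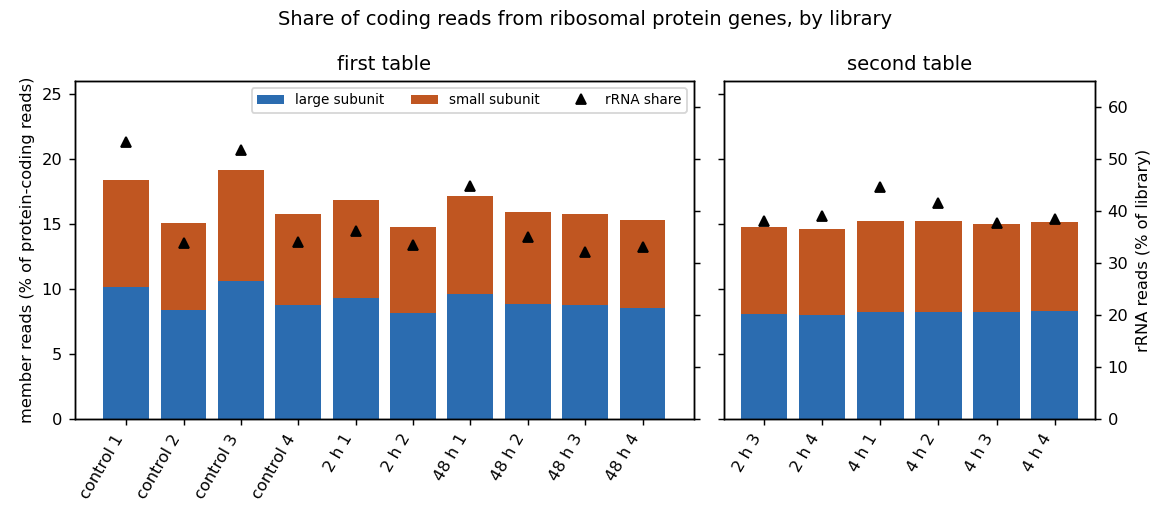
Share of protein-coding reads from ribosomal protein genes in each library (bars, left axis, %), split into large (blue) and small (orange) subunit, with the share of ribosomal RNA reads in the library (triangles, right axis, %). The tallest bars, 18.4% and 19.1%, are control 1 and control 3, which also have the highest triangles.

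At 2 h of auxin no member passed the test against control. Of the 78 members, 77 reached the filter of 1 CPM in at least 2 libraries of the first table (rpl-42 did not). limma called 0 of them at an adjusted p of 0.05, where the share called over all 7684 genes was 0%, and 0 members had an unadjusted p under 0.05, against 5.58% of all genes. edgeR and DESeq2 on recovered reads also called 0 members, against 0% and 0.377% of all genes. The median log2 fold change of the members was 0.12 against 0.24 for all genes. After centring each library on its median gene these became -0.18 and -0.05, so the direction of the family at 2 h depends on the scaling. The groups did not overlap for 3 members, rpl-10, rpl-11.1 and rps-19, each higher at 2 h, where 17.8% of all genes were higher in that way. For 0 members the 2 h values were all lower, against 0.976% of all genes.

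The largest positive differences fitted at 2 h were those of rps-2, rpl-4 and rpl-7A. The rps-2 gene, a small-subunit protein near the messenger entry, had 1094, 1973, 1276 and 2009 CPM in controls and 1897 and 1967 CPM at 2 h. Its 2 h values lay inside the control range, and controls 1 and 3 were low. The fitted difference was 0.33 ± 0.31 (log2, SE; limma adjusted p = 0.526). The rpl-4 gene, which lines the exit tunnel, had 565, 1564, 874 and 1556 CPM in controls and 1350 and 1279 CPM at 2 h, and the fitted difference was 0.33 ± 0.41 (log2, SE; adjusted p = 0.610 by limma). Again controls 1 and 3 were the low ones. For rpl-7A, another large-subunit protein, the difference was 0.32 ± 0.34 on the log2 scale (SE, limma adjusted p = 0.558). The most negative differences were smaller, at -0.09 for rpl-39, which sits in the exit tunnel, -0.08 for rpl-41.2 and -0.06 for rpl-41.1. All 6 of these turned direction without control 1, control 3 and 48 h library 1. In those 7 libraries limma again called 0 members, against 0.351% of all genes. With the length trend removed as well it called 4 lower, rpl-4, rpl-18, rpl-9 and rpl-2, at -0.19 to -0.29 on the log2 scale, against 0.457% of all genes called lower.

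At 48 h no member passed the test against control, and rpl-11.2, a member of low level, had the smallest p. limma called 0 of 77 members where 10% of all genes were called, and 2 members, rpl-11.2 and rpl-25.1, had an unadjusted p under 0.05, against 28.7% of all genes. edgeR called 1 member lower, rpl-11.2, against 11.6% of all genes called in either direction. DESeq2 called 5 members lower (rpl-11.2, rps-29, rpl-15, rps-8 and rpl-17) and 0 higher, against 16.3% of all genes. The median log2 fold change was 0.10 over the members against 0.24 over all genes, and -0.18 against -0.04 after centring. The 95% interval lay within 0.5 of 0 on the log2 scale for 50 of the 77 members. Groups did not overlap for 3 members, rpl-14, rps-16 and rps-20, all higher at 48 h, where 14.9% of all genes were higher in that way, and for 0 members in the other direction, against 3.67%. After centring the count was 0 higher and 8 lower, beside 508 and 813 of all 7684 genes.

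The rpl-11.2 transcript is the X-linked copy for the protein that binds the 5S ribosomal RNA (WBGene00004423, chromosome X, 2241738 to 2242618). It had 28.6, 54.3, 37.6 and 38.3 CPM in controls. At 48 h it had 20.8, 21.8, 30.3 and 23.2 CPM. The groups overlapped through control 1 and 48 h library 3 alone, and the other libraries of the 48 h group lay below every control. The mean was 24.0 ± 4.29 CPM at 48 h against 39.7 ± 10.7 CPM in controls (SD, n = 4 each). The log2 fold change was -0.68 ± 0.21 (SE), with an adjusted p of 0.0660 by limma, short of the threshold. It was called lower at -0.96 after centring (adjusted p = 0.00420, limma, 7.14% of all genes lower) and at -0.80 with the trend on gene length removed (adjusted p = 0.00645, limma, 10.4% of all genes lower). It was also called without control 1, at -0.82 (adjusted p = 0.0336, limma). Over all 24 alternatives run the fold change stayed between -0.98 and -0.52, with adjusted p from 2.1e-06 (DESeq2) to 0.156. The summed somatic gonad markers were 57.4 to 66.3 CPM at 48 h against 39.5 to 46.7 CPM in controls. Most of this sum was inx-8, at 46.8 to 55.1 against 31.8 to 37.6 CPM. The other somatic sums overlapped between the groups. They were 62.0 to 121 against 48.5 to 81.9 CPM for muscle and 24.9 to 39.97 against 26.8 to 44.5 CPM for neurons. For epidermis they were 26.1 to 43.5 against 17.98 to 27.99 CPM, and for intestine 20.7 to 45.9 against 17.7 to 38.3 CPM. The summed germline markers were 2004 to 3191 against 1504 to 2922 CPM. The part of these marker levels in the result was not tested.

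The rpl-41.2 transcript had 1618, 1116, 1608 and 1201 CPM in controls and 1366, 936, 950 and 905 CPM at 48 h. In the 48 h group library 1 stood above the other 3, which were below every control. The log2 fold change was -0.42 ± 0.19 (SE), with an adjusted p of 0.178 by limma, and -0.42 with an adjusted p of 0.0202 after removing the length trend. Next came rps-29, a small-subunit zinc-binding protein, at -0.11 ± 0.13 (SE, limma adjusted p = 0.530). The largest positive differences were those of rpl-20, rpl-3 and rpl-25.1. For rpl-20 the level was 298, 577, 416 and 645 CPM in controls and 412, 629, 666 and 646 CPM at 48 h, a difference of 0.32 ± 0.25 (log2, SE; limma adjusted p = 0.390). The rpl-3 gene, which encodes a protein of the catalytic centre, differed by 0.31 ± 0.23 (SE, limma adjusted p = 0.355). In both genes control 1, control 3 and 48 h library 1 held the lowest values of their groups.

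The comparison changed in precision when those 3 libraries were left out. In the remaining 7 libraries the 95% interval lay within 0.5 of 0 for 74 of 77 members, and limma called 2 members lower at 48 h against control, where 23.9% of all genes were called in either direction and 8.47% lower. These were rpl-11.2, at -0.85 (adjusted p = 0.00338), and rpl-41.2, at -0.32 (adjusted p = 0.0193). The other 75 members were not called. The median over the members was 0.05. When the length trend was removed as well, 3 members were called higher and 10 lower, where 15.9% and 19.8% of all genes were called in those directions. The largest differences were again -0.90 for rpl-11.2 and -0.34 for rpl-41.2, and the other 11 were between -0.21 and 0.17 (limma). Leaving out these libraries with the length correction was chosen after the data had been seen, and it leaves 2 controls.

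At 48 h against 2 h, within the first table, limma called 0 of 77 members where 2.85% of all genes were called, and 1 member, rpl-11.2, had an unadjusted p under 0.05, against 11.9% of all genes. edgeR called 0, against 4.93% of all genes, and DESeq2 called 1 lower, rpl-11.2, against 7.47%. The 2 h libraries had 46.8 and 30.3 CPM of rpl-11.2, and the 4 libraries at 48 h had 20.8 to 30.3 CPM. The highest 48 h value, of library 3, lay just under the lower 2 h value, so the groups did not overlap. The log2 fold change was -0.64 ± 0.26 (SE, limma adjusted p = 0.315). The next most negative differences were those of rpl-41.2 (-0.33) and rps-2 (-0.22), and the most positive those of rpl-25.1 (0.21), rpl-28 (0.11) and rpl-38 (0.10), none of which passed. The median over the members was -0.01 against -0.02 over all genes. Groups did not overlap for 1 member that was higher (rpl-25.1) and 3 that were lower (rpl-11.2, rpl-15 and rpl-19), where 12.5% and 14.8% of all genes separated in those directions. Without the 3 libraries 2 members were called lower, rpl-11.2 (-0.58, adjusted p = 0.0300) and rpl-41.2 (-0.47, adjusted p = 0.00237), where limma called 20.4% of all genes in either direction and 8.85% lower. With the length trend removed as well 11 members were called higher and 3 lower, where 13.9% and 18% of all genes were called in those directions. The comparison shares its 48 h libraries with the one against control.

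**Figure D3:**
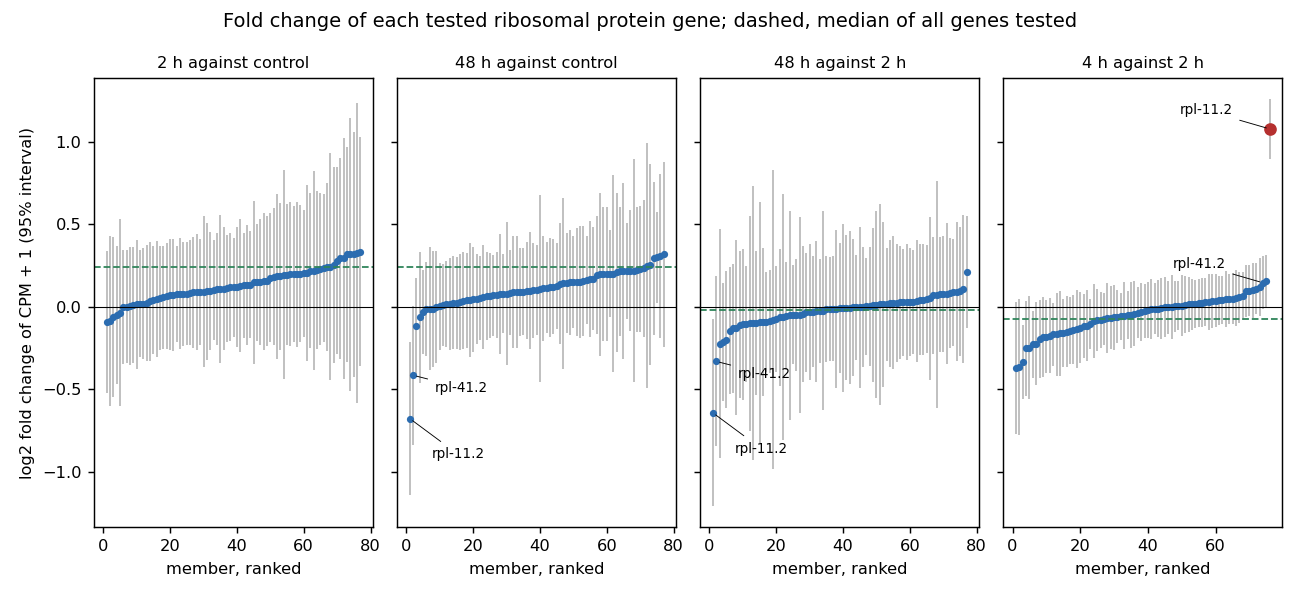
Log2 fold change of log2(CPM + 1) for each tested ribosomal protein gene in the 4 comparisons, ranked from low to high, with 95% intervals (grey lines), the median of all genes tested (dashed green) and genes past an adjusted p of 0.05 in red. Most members lie close to 0, and the 1 red point is rpl-11.2 at 1.08 in the comparison of 4 h with 2 h.

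Between 2 h and 4 h of auxin limma called 1 member on the deposited scale, rpl-11.2, which was higher at 4 h. It had 22.9 and 22.0 CPM in the 2 h libraries of the second table and 48.2, 46.4, 53.5 and 46.5 CPM in the 4 h libraries. Every 4 h library was above both 2 h libraries, and the values within each group were close together, at 22.5 ± 0.632 CPM (SD, n = 2) and 48.6 ± 3.35 CPM (SD, n = 4). The log2 fold change was 1.08 ± 0.083 (SE), with an adjusted p of 0.000275 by limma over 7301 genes. Of the 76 members tested (rpl-25.1 and rpl-42 did not reach the filter), this was the 1 called, where 0.384% of all genes were called in either direction and 0.178% were called higher. It was called in each of the 19 alternatives run, at log2 fold changes of 1.03 to 1.19.

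Of the 13 genes called higher at 4 h, 9 were X-linked, rpl-11.2 among them, and 4.00% of the genes tested were X-linked. By size rpl-11.2 ranked second of the 13. None of the 15 genes called lower was X-linked. The median log2 fold change over all X-linked genes tested was 0.03. X-linked genes were also called at 48 h, where 4.71% of the genes tested were X-linked. Against control they were 31 of the 208 genes called lower and 21 of the 564 called higher. Against 2 h they were 15 of the 152 genes called lower and 2 of the 67 called higher. These counts are by limma on the deposited scale, where rpl-11.2 was not called at 48 h. No somatic marker list lay above its 2 h range in all 4 h libraries. The sums at 4 h and 2 h were 34.3 to 37.7 and 34.6 to 37.2 CPM for somatic gonad, 15.3 to 17.5 and 17.7 to 18.9 CPM for intestine, and 44.6 to 58.4 and 51.0 to 56.8 CPM for muscle. For neurons they were 31.8 to 44.5 and 44.1 to 47.9 CPM, and for epidermis 22.5 to 29.9 and 28.6 to 28.8 CPM. The germline markers summed to 2012 to 2323 CPM at 4 h and 2389 to 2504 CPM at 2 h, so every 4 h library lay below both 2 h libraries. On this scale 24% of all genes separated in that direction. The median log2 fold change of the germline markers was -0.09 against -0.07 over all genes, and -0.006 against 0.01 after centring. A lower germline content at 4 h therefore cannot be read from the sum. The part of these marker levels in the rise of rpl-11.2 was not tested.

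The 2 h libraries of the first table stood higher in rpl-11.2, at 46.8 and 30.3 CPM, than those of the second, at 22.9 and 22.0 CPM. Set across the tables as levels only, the 4 h values of 46.4 to 53.5 CPM lay within the range of the controls, 28.6 to 54.3 CPM, and the 2 h values of the second table lay within that of the 48 h group. No source used here says whether the tables were separate batches. The rise rests on 2 libraries at 2 h.

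The other 75 members were not called by limma between 2 h and 4 h on the deposited scale. The median log2 fold change of the 76 was -0.03 against -0.07 over all genes, and 0.05 against 0.01 after centring. For 70 of 76 members the 95% interval lay within 0.5 of 0. The groups did not overlap for 9 members that were higher and 6 that were lower, where 6.16% and 24% of all genes separated in those directions. After centring these counts were 31 higher and 5 lower, beside 1317 and 1079 of all 7301 genes, so the split of directions depends on the scaling. Beside rpl-11.2, rpl-28 and rpl-39 had an unadjusted p under 0.05, against 15.5% of all genes.

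The rpl-28 gene, for a large-subunit protein, had 164 and 169 CPM at 2 h and 117, 119, 149 and 145 CPM at 4 h. All 4 h values were below both 2 h values, with 4 h libraries 1 and 2 the lowest. Its log2 fold change was -0.34 ± 0.10 (SE, limma adjusted p = 0.190). Without 4 h library 3 it was called (-0.40, adjusted p = 0.0396, limma), and edgeR and DESeq2 called it at -0.26 with adjusted p of 0.0487 and 0.00842. edgeR called 2 members, rpl-11.2 and rpl-28, against 3.19% of all genes. An exon of rpl-28 overlaps an exon of R11D1.13 on the opposite strand. DESeq2 called 4 members higher, rpl-11.2, rps-7, rps-9 and rps-19, and 1 lower, rpl-28, where it called 4.63% of all genes in either direction. For rps-7, rps-9 and rps-19 the difference was 0.18 to 0.19 on the log2 scale.

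The most negative differences at 4 h beside rpl-28 were those of rpl-4 and rpl-20. For rpl-4 the level was 785 and 752 CPM at 2 h and 471, 473, 776 and 720 CPM at 4 h, which differ by -0.37 ± 0.18 (log2, SE; limma adjusted p = 0.347). For rpl-20 it was 286 and 278 CPM at 2 h and 168, 176, 288 and 267 CPM at 4 h, which differ by -0.37 ± 0.19 (log2, SE; limma adjusted p = 0.361). In both, 4 h libraries 1 and 2 were low, and these have the most ribosomal RNA of the second table, at 44.6% and 41.5%. The part of ribosomal RNA in these values was not tested. The highest after rpl-11.2 were rpl-41.1 at 0.16 and rpl-41.2 at 0.15, with limma adjusted p of 0.330 and 0.350.

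There were 4 pairs of members whose names differ in the last digit, and in each a strongly expressed copy stood beside a weak one. The ratio of the copies within a library does not depend on how the library was scaled. It was tested between 48 h and control with a 2-sided exact permutation test over libraries, adjusted over the 4 pairs. The smallest p that 4 against 4 libraries allow is 0.0286, so a pair that separated alone could not pass after adjustment. The rpl-25 and rpl-41 pairs both reached this smallest p and were adjusted to 0.0571. No pair passed, and for these the test could not decide, since full separation was not enough.

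In the rpl-11 pair the autosomal copy carried nearly all reads. The rpl-11.1 gene (WBGene00004422, chromosome V, 3585312 to 3586064) had 2609 to 3192 CPM over the 16 libraries. It was 48.6 to 96.1 times rpl-11.2 in controls and 89.8 to 134 times at 48 h. In the second table it was 120 and 122 times at 2 h and 53.4 to 68.9 times at 4 h. The log2 ratio of rpl-11.2 to rpl-11.1 was -6.83 ± 0.25 at 48 h and -6.12 ± 0.40 in controls (SD, n = 4 each), a difference of -0.71 (exact permutation p = 0.0571, adjusted p = 0.0762). The control and 48 h ranges overlapped.

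The rpl-41 copies lie side by side on chromosome I, rpl-41.1 (WBGene00023067) at 4789190 to 4789592 and rpl-41.2 (WBGene00023068) at 4790292 to 4790642, on the same strand, and the files assign them the same protein entry. The counting of reads that match both is not stated, so the split between them is uncertain. The rpl-41.2 copy was 13.7 to 14.9 times rpl-41.1 in controls. At 48 h it was 10.7 to 11.8 times. The groups did not overlap, and the 48 h libraries lay below the other 12 libraries, which had 13.7 to 16.3 times. The log2 ratio of rpl-41.1 to rpl-41.2 was higher at 48 h by 0.35 (exact permutation p = 0.0286, adjusted p = 0.0571). On the deposited scale the mean of rpl-41.2 was 1039 CPM at 48 h against 1386 CPM in controls, with overlapping groups. That of rpl-41.1 was 92.5 against 96.2 CPM, and limma called neither copy. Unlike the ratio, the level of a single copy depends on how the library was scaled.

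The rpl-25 pair, for a protein at the exit of the tunnel, had its weak copy on X. The rpl-25.1 gene (WBGene00004438, chromosome X, 4715178 to 4715796) had 0.671, 0.834, 0.611 and 1.24 CPM in controls and 1.01, 1.2003, 1.44 and 1.35 CPM at 48 h, from 18 to 41 reads a library. The groups overlapped through control 4. Its partner rpl-25.2 (WBGene00004439, chromosome I, 8329062 to 8329647) had 486 to 951 CPM over the 16 libraries. The log2 ratio of rpl-25.1 to rpl-25.2 was higher at 48 h by 0.53 (exact permutation p = 0.0286, adjusted p = 0.0571), with every 48 h library above every control. In the second table rpl-25.1 had 4 to 13 reads a library, and no change could be read at that depth.

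In the rpl-24 pair rpl-24.1 (WBGene00004436, chromosome I, 4585115 to 4586176) encodes the ribosomal protein, and rpl-24.2 (WBGene00004437, chromosome I, 9669415 to 9670098) is described as a factor of ribosome assembly. The weaker rpl-24.2 held 7.62% to 9.16% of the reads of the pair in controls and 7.01% to 8.23% at 48 h. The groups overlapped, and the log2 ratio differed by -0.18 (exact permutation p = 0.114, adjusted p = 0.114). The level of rpl-24.2 was 91.1 to 114 CPM over the 16 libraries.

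**Figure D4:**
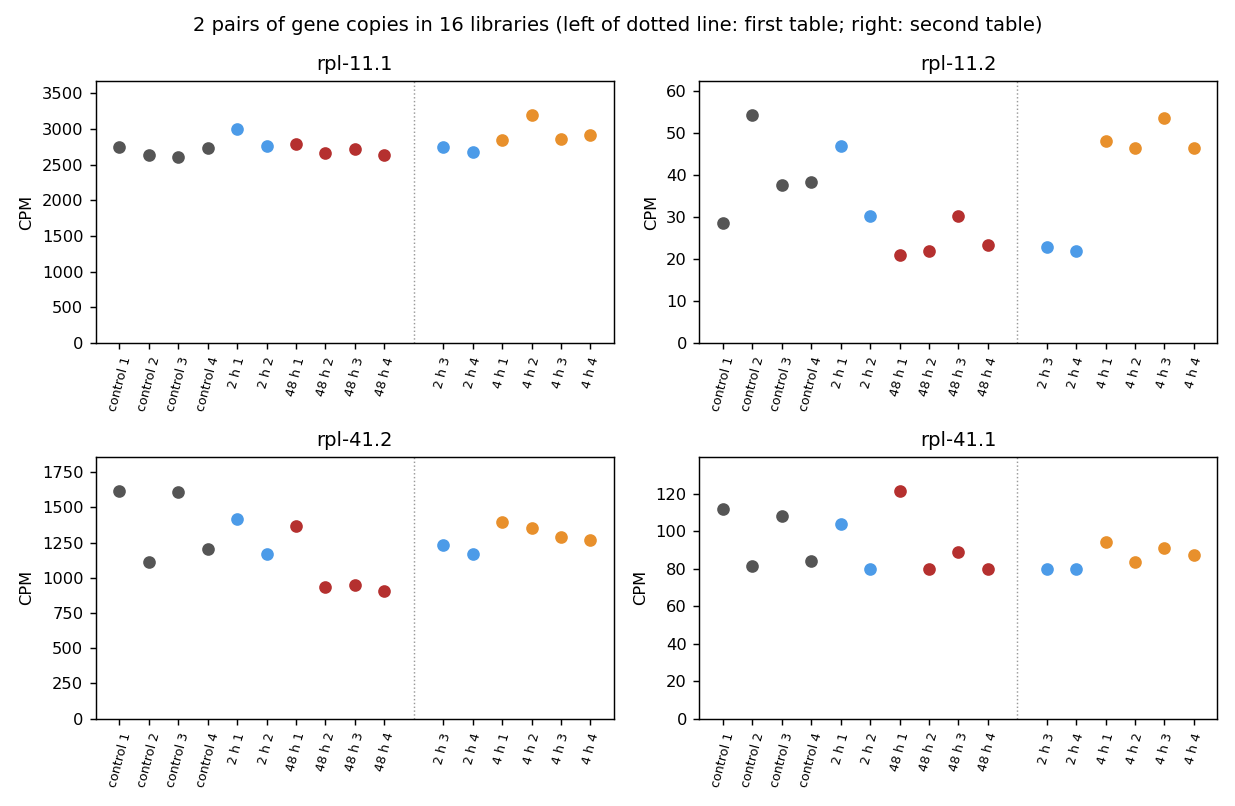
CPM of rpl-11.1, rpl-11.2, rpl-41.2 and rpl-41.1 in each of the 16 libraries, with the first table left of the dotted line and the second right of it; each point is 1 library, coloured by group. The rpl-11.2 points are at 22.0 and 22.9 CPM in the 2 h libraries of the second table and at 46.4 to 53.5 CPM at 4 h, while rpl-11.1 stays between 2609 and 3192 CPM.

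The genes whose pattern over the 16 libraries was most like that of rpl-11.2, among 7240 genes tested in both tables, were W03C9.6 (Pearson r = 0.85), ZC190.8 (0.84), pxn-1 (0.83), gas-1 (0.80) and apm-3 (0.80). The measure was the correlation of log2(CPM + 1) after subtracting the mean of each table, and the points share library composition and depth. The last of these genes, gas-1 and apm-3, are X-linked, pxn-1 and ZC190.8 are on chromosome V and W03C9.6 on chromosome II. The levels were low for most of them, with means of 0.860 to 13.99 CPM.

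Members differed in how much they varied between libraries. Over the 72 members with a mean of at least 200 CPM the coefficient of variation across the 16 libraries was lowest for rps-19, at 4.56%, and highest for rpl-20 at 41.9%, rpl-4 at 39.9% and rpl-18 at 34.3%. Within groups the median coefficient of variation was 12.6% in controls, 9.39% at 48 h and 6.85% at 4 h (4 libraries each). Counting error at the median member was 0.54% to 0.67%, so the spread between libraries was far larger than that of read sampling.

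Levels also varied with gene length in some libraries. In control 1, the slope of the members' log2 level, relative to the mean of the table, was -0.34 per log2 unit of exon length. The slope was -0.26 in control 3 and -0.22 in 48 h library 1. In the other 7 libraries of the first table it was -0.02 to 0.16, and in the second table -0.09 to 0.06. Among the 24 longest of the 72 members the median level lay at -0.45 in control 1 relative to the table mean (log2), and among the 24 shortest at -0.06. In control 2 these were 0.10 and -0.07. Long members were thus low against short ones in the 3 libraries with the most ribosomal RNA, and the same sign was seen over all genes, with slopes of -0.19, -0.16 and -0.12. The part of ribosomal RNA or RNA quality in these slopes was not tested.

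**Figure D5:**
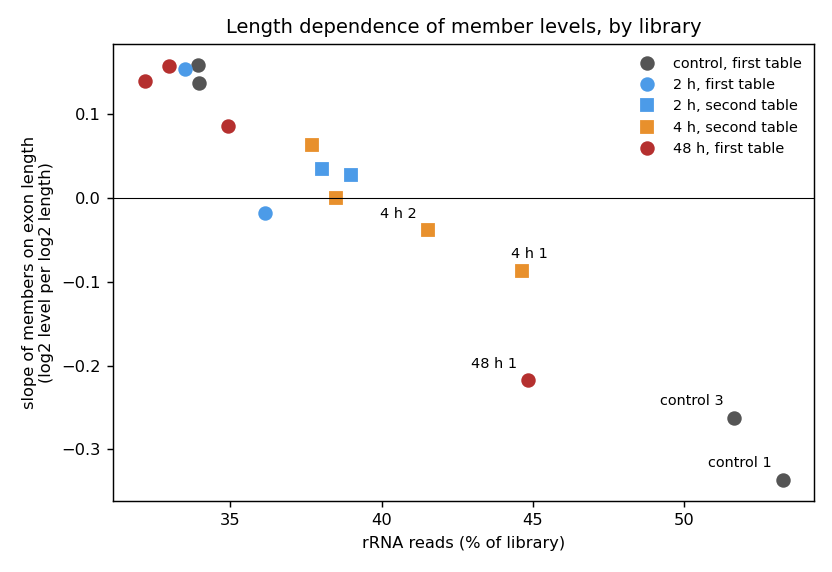
Slope of the log2 level of 72 ribosomal protein genes, relative to the table mean, on log2 exon length (vertical axis) against the share of ribosomal RNA reads in the library (horizontal axis, %), with 1 point a library. Control 1, control 3 and 48 h library 1 lie lowest, at -0.34, -0.26 and -0.22.

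Other genes of the translation machinery were not called at 48 h on the deposited scale. Of 6 tested genes of the P stalk and ribosome-linked proteins, 8 of translation elongation, 18 of translation initiation, 33 of ribosome assembly and nucleolus and 6 of RNA polymerase I, limma called 0 against control, where 10% of all genes were called. The smallest p values in these lists were those of rla-0, the stalk protein, at a log2 fold change of 0.21 (limma adjusted p = 0.386) and ubl-1 at 0.14 (0.535), of iff-1, a translation factor needed in the germline, at -0.33 (0.103) and its relative iff-2 at 0.24 (0.176), of the initiation factor subunits eif-3.E at 0.28 (0.230) and eif-3.G at 0.27 (0.235), of T07A9.8 at -0.28 (0.143) and ncl-1, a repressor of nucleolar size, at 0.50 (0.249), and of the polymerase subunits rpac-40 at 0.22 (0.235) and rpoa-49 at 0.25 (0.245). The medians of these lists were 0.07 to 0.27, against 0.24 over all genes. Without control 1, control 3 and 48 h library 1, where 8.47% of all genes were called lower, limma called lower 5 genes of ribosome assembly and nucleolus (T07A9.8, K07H8.10, ZK265.6, lpd-7 and exos-8, at -0.23 to -0.44 on the log2 scale), iff-1 (-0.31) and the polymerase subunit rpac-19 (-0.28), and 0 genes of these lists higher.

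The TOR pathway couples nutrients to ribosome production, and its list here also held mml-1 and mxl-2. Of the 9 genes tested, limma called 2 higher and 0 lower at 48 h, where it called 7.34% of all genes higher. The raga-1 gene, which encodes a Rag GTPase that carries amino acid signals to TOR, was at 76.7 ± 2.19 CPM at 48 h against 47.5 ± 8.47 CPM in controls (SD, n = 4 each), which is 0.70 ± 0.14 on the log2 scale (SE; limma adjusted p = 0.0122). The mlst-8 gene, for a subunit of the TOR complexes, was at 34.0 ± 1.12 against 23.6 ± 3.24 CPM (SD, n = 4 each), which is 0.52 ± 0.12 on the log2 scale (SE; limma adjusted p = 0.0211). After centring raga-1 remained called (0.42, limma adjusted p = 0.0134) and mlst-8 did not (0.24, limma adjusted p = 0.168), and ragc-1, another Rag GTPase, was called lower (-0.35, limma adjusted p = 0.0403). The median of the 9 was 0.35 against 0.24 over all genes. In the 7 libraries 3 genes of the list were called higher (raga-1, mlst-8 and rheb-1) and 2 lower (rsks-1 and ragc-1), where 15.4% and 8.47% of all genes were called in those directions, so its genes did not share a direction. For ribosome assembly and nucleolus 2 of 33 genes were called lower after centring and 8 with the length trend removed, where limma called 7.14% and 10.4% of all genes lower (10.9% and 19.4% in either direction). In the other 3 comparisons limma called 0 genes of all 6 lists on the deposited scale.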

How the data were processed

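The authors deposited 2 tables with 1 column a library, whose values they name CPM; they are handled here as a signal because the columns as deposited sum to 1020920 to 1035945. Per the submitters' processing notes, the tools were STAR 2.0.4b, Subread and featureCounts 1.4.5, and also edgeR and limma, with roles and settings not stated. Build, annotation release, strand setting and treatment of multiply matching reads: not given in the sources used here. Repeated lines of a gene were reduced to 1. All nonzero values came out as whole reads (100%, tolerance 0.1 read), so reads were recovered. A count of 0 allows 3 reads, 0.0885 to 0.169 CPM; this covers counting error only.

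Each table was fitted over all genes with at least 1 CPM in 2 libraries, with the 2-sided moderated test of limma 3.58.1 with a trend (R 4.3.3) on log2(CPM + 1), a scale that understates the change of low genes. Adjustment was Benjamini-Hochberg over all genes tested, with a threshold of 0.05. The control, 2 h and 48 h libraries of the first table shared 1 fit. edgeR 4.0.16 (quasi-likelihood) and DESeq2 1.42.0 on recovered reads, other pseudocounts (0.5, 0.1) and filters, median centring over genes of at least 10 CPM, a length trend removed by loess, a replicate block and leaving out libraries were alternatives. The fitting was tested on simulated data.

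Coordinates and exon lengths are from the Ensembl annotation of WBcel235, not stated to be the authors' build; 46363 of 46536 gene IDs were found. Members and lists were chosen with earlier results of these data known. Named members were those of pairs, all called members, the 3 largest rises and falls of each comparison and the 5 highest and lowest levels; outside them, the 2 genes of smallest p in each list at 48 h and the 5 most like rpl-11.2. Members with non-overlapping groups or called by other tools, list genes called without 3 libraries, and W01D2.1, were named after their values were seen. No sequences were used.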

Additional observations from a re-analysis of the deposited data

Results flagged for a closer look

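In the 4-library groups 57 sets of values were searched for a library far from the other 3, and 5 were found; chance gives about 1 in 20 groups. In controls, rpl-39 was 456 CPM in library 3 against 349 to 358 CPM in the others. The other 4 were all 48 h library 1. In that library rpl-20 was 412 CPM against 629 to 666 CPM, rps-2 was 1073 CPM against 1817 to 1968 CPM, and rpl-41.2 was 1366 CPM against 905 to 950 CPM. Its ratio of summed large-subunit to small-subunit CPM was 1.28 against 1.25 in each of the others. Ribosomal RNA took 44.9% of that library and 51.7% of control 3, and the part of it in these values was not tested.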

How the results depend on the processing

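Up to 24 alternatives were run for each comparison. The rise of rpl-11.2 at 4 h held in all 19. Medians of the members turned negative at 2 h against control under centring (-0.18), the protein-coding total (-0.13), edgeR (-0.17) and DESeq2 (-0.17), and at 48 h against control under the same settings (-0.18, -0.094, -0.18 and -0.18). At 4 h they turned positive under centring (0.054), length removal (0.043), edgeR (0.049) and DESeq2 (0.049). The summed level became -0.11 at 2 h and -0.086 at 48 h (log2) as a share of protein-coding reads. Members called at 48 h against control numbered 1 under centring, the protein-coding total and edgeR, 2 with the length trend removed and 5 with DESeq2. The shares called over all genes were 10.9% with centring, 11.6% with edgeR, 19.4% with the length trend removed and 16.3% with DESeq2. Members called numbered 0 to 1 when each library was left out in turn. For 48 h against 2 h DESeq2 called 1, against 7.47% of all genes. For 4 h edgeR called 2 and DESeq2 5, against 3.19% and 4.63% of all genes. Leaving out each library gave 1 to 2, and leaving out 4 h libraries 1 and 2 (chosen after seeing the data) gave 2. No share over all genes is given here for the protein-coding total or for leaving out these libraries.

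Without control 1, control 3 and 48 h library 1, 2 members were called for 48 h against control and 2 against 2 h. The shares over all genes were 23.9% and 20.4%. With centring too, the members called stayed at 2 and 2, where 24% and 21.8% of all genes were called. With length removal too, 4 members were called at 2 h (median -0.054), 13 at 48 h against control and 14 against 2 h. The shares over all genes were then 1.53%, 35.7% and 31.9%. Both combinations were chosen after seeing the data.

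Whether replicate numbers pair the samples could not be decided. The deviations of same-numbered 48 h and control libraries correlated at 0.69, 0.43, -0.42 and 0.58 (libraries 1 to 4). Across numbers, 48 h library 1 correlated at 0.72 with control 3 and at -0.73 with control 2. The signs followed which libraries were high in ribosomal RNA, so these values cannot show pairing or its absence. With the replicate block 4 members were called at 4 h, where 8.82% of all genes were called. With block and length removal 22 were called (median 0.059), where 9.43% of all genes were called. In the second table only numbers 3 and 4 occur in both groups, so 4 h libraries 1 and 2 have no partner there. The spread of a gene is then measured on few libraries, and these calls rest largely on the spread shared over all genes. The block thus gave the same fold changes as leaving out 4 h libraries 1 and 2, 1.12 for rpl-11.2 and -0.18 for rpl-28. For 48 h against control block and length removal gave 2, where 25.3% of all genes were called.

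Directions of uncalled single members turned in some settings. For rpl-11.1 at 2 h the log2 values were -0.19 (centring), -0.15 (protein-coding total), -0.0051 (length), -0.032 (block and length), -0.21 (edgeR) and -0.20 (DESeq2). At 48 h against control rpl-11.1 gave -0.27, -0.19, -0.095, -0.095, -0.28 and -0.28 in that order. It gave -0.0065 without the 3 libraries, -0.060 with length and -0.058 with centring besides, and -0.0040 to 0.023 leaving out each library. At 2 h without the 3 libraries, then with length removal and with centring besides, rpl-4 gave -0.25, -0.29 and -0.26, rpl-7A -0.12, -0.17 and -0.13, rps-2 -0.043, -0.092 and -0.058, rpl-41.1 0.14, 0.072 and 0.13, and rpl-41.2 0.15, 0.083 and 0.14. Without them rpl-39 gave 0.0063. Leaving out each library at 2 h gave 0.031 to 0.52 for rpl-4, 0.13 to 0.47 for rpl-7A, 0.17 to 0.46 for rps-2, -0.35 to 0.16 for rpl-39, -0.25 to 0.12 for rpl-41.1, -0.22 to 0.053 for rpl-41.2 and -0.34 to 0.27 for rpl-11.2, which was 0.027 with the block. For rpl-3 at 48 h against control the combinations gave -0.030 and -0.011. For rpl-38 at 48 h against 2 h, centring without the 3 libraries gave -0.015 and leaving out each library -0.054 to 0.25. For rpl-20 at 4 h block and length gave 0.0055. The causes were not tested.

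Groups of 2 libraries at 2 h and spread between libraries limit these comparisons, and read depth limits rpl-25.1 and rpl-42. For 36 of 77 members at 2 h and 50 of 77 at 48 h against control, 47 of 77 at 48 h against 2 h and 70 of 76 at 4 h, the 95% interval lay within 0.5 of 0 (log2). For the rest the interval reached beyond 0.5, so differences larger than that remain possible.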
